A study of Mus musculus with 7 samples.

Results

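The genes described here are the 3 caveolins, Cav1, Cav2 and Cav3, and Cavin1, the coat protein formerly called Ptrf, followed in whole mouse bladder at 2 ages and in whole newborn mice. Members were taken by gene name: probe sets of the array that the platform annotation assigns to 1 of these 4 genes only, which gave 7 probe sets of 45037 and 4 genes of 18193. The probe set with the highest mean over the 7 arrays stood for its gene. The bladders were 3 of adult males (Theiler stage 28) and 3 of males at postnatal day 1 (P1, Theiler stage 27), set against 1 array of whole mice of postnatal day 1, a pool of 4 males and 4 females. All animals were FVB/N. Both bladder groups carried the SMGA/EGFP transgene, in which the promoter of smooth muscle gamma-actin drives enhanced green fluorescent protein in cells that use that promoter, whereas the whole-newborn pool was wild type. Each bladder array held an unpooled sample of the entire organ, with every cell layer in it, and the labels give no age in weeks for the adults. Total RNA went through 2 rounds of amplification before 1-colour hybridization.

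Caveolae are small flask-shaped pits of the plasma membrane. They are abundant in smooth muscle, endothelium and fat cells, where they buffer membrane tension and hold receptors, ion channels and signalling enzymes close together. Caveolins insert into the inner leaflet and oligomerize, cavins coat the pit from the cytosol, and EHD ATPases form a ring at its neck. In bladder the detrusor muscle, which contracts to empty the organ, is lined with rows of caveolae. Cav1 is the caveolin that most cell types need to build the pit, Cav2 joins it in hetero-oligomers, Cav3 is the form typical of striated muscle, and Cavin1 is the cavin without which caveolae do not form.

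The labels and the arrays limit what the values can show. The title of the newborn pool speaks of bladders, while its source and protocol describe entire animals. The summed intensity of 13 smooth muscle markers was 433822 to 620770 in adult bladders, 410680 to 526494 in P1 bladders and 92425 in the pool, which was read as whole animals. Adult tissue was kept in liquid nitrogen but P1 tissue in a freezer, and age and storage cannot be told apart. Array medians ran from 226 to 312 in adult bladders and from 209 to 290 in P1 bladders, and stood at 434 in the whole newborn. The signal of the hybridization spike-ins, relative to the lowest of the arrays, was 2.35 on adult replicate 2, 1.68 on P1 replicate 3, 1.88 on the whole-newborn array and 1.00 to 1.43 on the other bladder arrays. Adult replicates 1 and 3 carried transcripts of male accessory glands, with summed intensities of 10712 and 10687 over 10 markers, against 592 on adult replicate 2 and 977 to 1140 in P1 bladders. Nothing in the labels says that the samples of a stage came from separate litters or days, so p-values measure the spread between these samples only.

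Cav2 and Cav1 are neighbouring protein-coding genes on mouse chromosome 6, between Tes and Met, and Cav3 lies elsewhere on that chromosome, between Ssu2 and Oxtr. Cavin1 lies on chromosome 11, between Stat3 and Atp6v0a1. The 250 bases before the gene start, from RefSeq (GRCm38.p6, plus strand, first listed start), are shown for the 3 caveolins so that Cav3, the member whose level differed most between the ages, can be read beside the adjacent pair. The windows are chr6:17306085-17306334 for Cav1, chr6:17280935-17281184 for Cav2 and chr6:112459255-112459504 for Cav3. Capitals mark each E-box (CANNTG, the same on both strands) and each GC box (GGGCGG, either strand).
Cav1: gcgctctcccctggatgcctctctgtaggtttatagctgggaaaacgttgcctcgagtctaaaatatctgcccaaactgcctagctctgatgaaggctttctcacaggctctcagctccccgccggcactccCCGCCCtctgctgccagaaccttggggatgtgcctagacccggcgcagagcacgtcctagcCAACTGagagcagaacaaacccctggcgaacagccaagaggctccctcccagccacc
Cav2: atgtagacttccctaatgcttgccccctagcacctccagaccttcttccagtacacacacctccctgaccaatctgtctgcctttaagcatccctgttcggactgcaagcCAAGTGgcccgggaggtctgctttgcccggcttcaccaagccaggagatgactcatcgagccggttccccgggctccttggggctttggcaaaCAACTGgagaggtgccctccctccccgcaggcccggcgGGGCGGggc
Cav3: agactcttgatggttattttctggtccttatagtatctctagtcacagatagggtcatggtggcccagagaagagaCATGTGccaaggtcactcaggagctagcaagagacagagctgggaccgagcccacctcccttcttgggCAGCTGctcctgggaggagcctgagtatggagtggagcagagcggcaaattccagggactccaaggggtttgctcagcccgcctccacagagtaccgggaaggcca
The Cav1 window held 1 E-box (CAACTG) and 1 GC box, and the Cav2 window held 2 E-boxes (CAAGTG and CAACTG) and 1 GC box. The Cav3 window held 2 E-boxes (CATGTG and CAGCTG) and no GC box. A second listed start of Cav1 had 1 E-box (CAGGTG) and no GC box, and both starts of Cavin1 had 1 GC box and no E-box. Neither the CArG box nor the MEF2 box, searched on both strands, had a match in any of these windows, and no matches overlapped. Among 32851 RefSeq windows of the same length, 66.2% held an E-box, 32.7% a GC box, 1.47% a CArG box and 0.508% a MEF2 box. These are letter matches in short windows and say nothing about binding.

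Cav1 gave a strong signal in bladder at both ages. Its only probe set (1449145_a_at) read 62065, 69308 and 58968 in adult bladders, 78218, 67557 and 72758 in P1 bladders and 45793 in the whole newborn. The stages overlapped, since adult replicate 2 lay above P1 replicate 2, and all 6 bladders lay above the newborn animals. In the bladders the signal was 48.3% to 83.2% of the array's highest value, toward the upper end of what these arrays read. Means were 63447 ± 5306 in adult and 72844 ± 5331 in P1 bladders (SD, n = 3 each). The adult minus P1 difference on the log2(intensity + 49) scale was -0.20 (limma SE 0.15, 95% interval -0.54 to 0.14, adjusted p = 0.476).

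Cav2, the partner of Cav1, read 13104, 7803 and 10784 in adult bladders, 14214, 16695 and 9166 in P1 bladders and 3483 in the whole newborn (1417327_at). Adult and P1 values overlapped, and each bladder lay well above the newborn pool. Means were 10564 ± 2657 in adult and 13358 ± 3837 in P1 bladders (SD, n = 3 each), a log2 difference of -0.33 (limma SE 0.29, 95% interval -0.99 to 0.34, adjusted p = 0.556). A dimmer Cav2 probe set (1425955_at) read 434, 363 and 399 in adult bladders, 645, 446 and 484 in P1 bladders and 450 in the whole newborn. Here the stages did not overlap, but the log2 difference of -0.35 did not pass either (limma adjusted p = 0.588), and the newborn pool fell between the P1 values.

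Cavin1, the coat protein, read 10429, 7229 and 11045 in adult bladders, 14130, 15356 and 9915 in P1 bladders and 7774 in the whole newborn (1424130_a_at). The stages overlapped, and the newborn pool lay within the adult range and below every P1 bladder. Means were 9567 ± 2049 in adult and 13134 ± 2854 in P1 bladders (SD, n = 3 each), and the log2 difference was -0.45 (limma SE 0.26, 95% interval -1.05 to 0.14, adjusted p = 0.340). Of 2 dimmer Cavin1 probe sets, 1421431_at read 144 to 618 in adult and 187 to 613 in P1 bladders and was not tested between the stages because it failed the filter on low values. The other, 1453891_at, read 77.6 to 275 in adult and 246 to 298 in P1 bladders, with a log2 difference of -0.52 (limma adjusted p = 0.559).

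Cav3, the muscle caveolin, was the member whose level differed between the ages. Its only probe set (1418413_at) read 351, 272 and 347 in adult bladders, 2477, 1599 and 1581 in P1 bladders and 3609 in the whole newborn. Every adult bladder lay far below every P1 bladder, and every P1 bladder lay below the newborn pool. Means were 323 ± 44.2 in adult and 1886 ± 512 in P1 bladders (SD, n = 3 each). Cav3 fell in adult bladder by 2.35 on the log2 scale (limma SE 0.32, 95% interval -3.08 to -1.63, adjusted p = 0.00403), a 5.11-fold lower level on that scale. The adult signal was dim, between percentiles 47.2 and 57.0 of its array and below the array median on adult replicate 2, and no detection calls were analysed. Adult replicate 2, which lacked the gland transcripts of the other adult arrays, gave the lowest Cav3 reading, 272, and without it the difference was -2.25 (limma adjusted p = 0.00918).

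**Figure D1:**
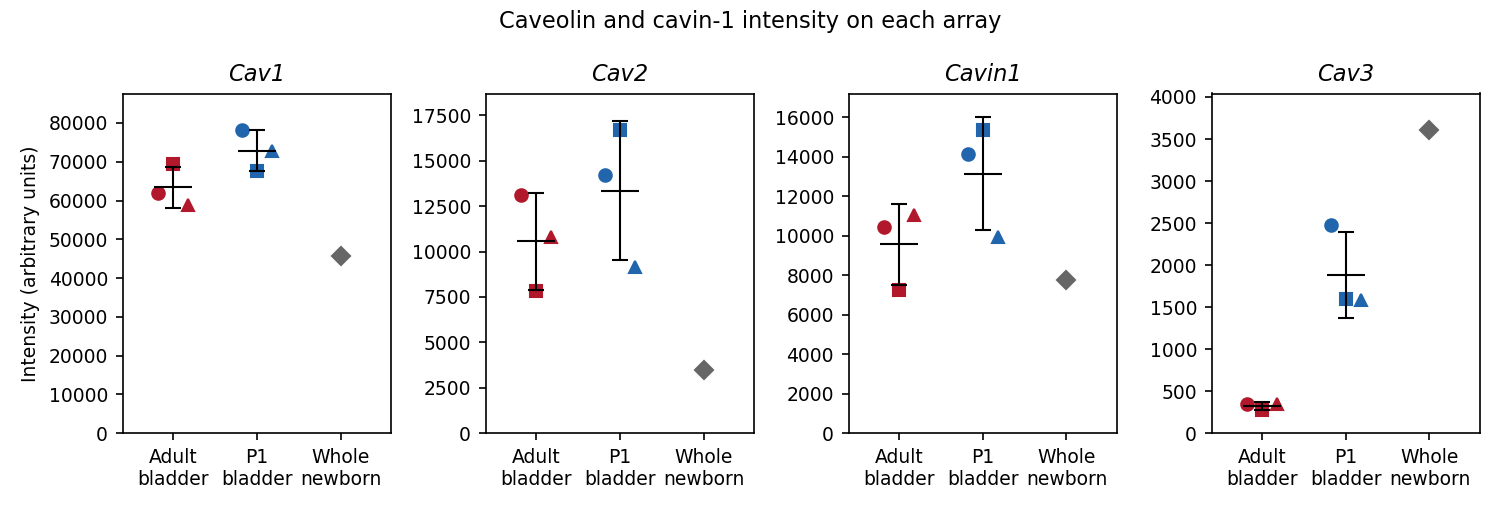
Intensity in arbitrary units (linear axes from 0) of the representative probe sets of Cav1, Cav2, Cavin1 and Cav3 on each array of adult bladder (red), P1 bladder (blue) and whole newborn (grey diamond). Circles, squares and triangles mark replicates 1, 2 and 3, and bars give mean ± SD (n = 3). The adult Cav3 values, 272 to 351, lie apart from the P1 values, 1581 to 2477, while the stages overlap in the other panels.

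All 4 representative probe sets passed the filter and entered the stage test, and 1 of the 4 was called, lower in adult bladder. Of the 11930 genes tested, 1 probe set each, 4.95% were called lower, 4.02% higher and 8.97% in either direction. Of all 23304 probe sets tested the shares were 4.12%, 3.73% and 7.85%. The adult minus P1 log2 change of Cav3 was 2.15 below that of Cav1, 2.03 below that of Cav2 and 1.90 below that of Cavin1. Each of these 3 differences had an exact permutation p of 0.1, two-sided, the smallest that 3 against 3 samples allow, and 0.2 after Benjamini-Hochberg adjustment over the 6 pairs of members. For those 3 pairs the within-array log2 differences did not overlap between the stages. Among Cav1, Cav2 and Cavin1 the changes differed by 0.13 to 0.25 log2 units (exact permutation p from 0.5 to 0.8), and the ranges of the stages overlapped for each pair. In whole-organ RNA, fewer cells of a type and less RNA per cell cannot be told apart.

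Most of the tested markers of skeletal muscle fell as Cav3 did. Of 16 skeletal muscle markers on the array, 11 passed the filter, and 8 of these were called lower in adult bladder and none higher (limma), with a median log2 difference of -2.84. Over all 11930 genes tested 4.95% were called lower and 4.02% higher, and the median was -0.01. Tnnc2, Tnnt3, Myh3 and Myh8, all called lower, lay below the array median on every adult bladder. They passed the filter only through the P1 arrays, where they were high, so their calls are no separate support. The count of 8 and the median of -2.84 include them. The other genes called lower were Acta1, Ckm, Casq1 and Tnnt1. Acta1, skeletal alpha-actin, read 15961, 16692 and 15073 in adult and 64605, 36496 and 68941 in P1 bladders and fell by 1.78 on the log2 scale (limma adjusted p = 0.00475). Ckm, muscle creatine kinase, fell by 2.31 (adjusted p = 0.00491) and Casq1, the calcium store protein of fast fibres, fell by 2.84 (adjusted p = 0.0115). Tnnc2, fast troponin C, read 147 to 183 in adult and 8635 to 13996 in P1 bladders and fell by 5.66 on the log2 scale (limma adjusted p = 7.05e-05). The 3 tested markers that did not pass were Tnni2, fast troponin I (-0.88, limma adjusted p = 0.203), and the adult fast myosins Myh1 (0.0021, adjusted p = 0.999) and Myh2 (-0.18, adjusted p = 0.908). Myh2 read 1966, 13081 and 2446 in adult and 3238, 8393 and 3378 in P1 bladders, highest on adult replicate 2. Myh4, another fast myosin, was too dim for the test, at 112, 82.2 and 10.3 in adult and 7.90, 15.4 and 10.9 in P1 bladders. Summed over the 16 markers, the adult intensity was 21647 to 34278, or 4.38% to 6.94% of the whole newborn. The P1 intensity was 96643 to 132003, or 19.6% to 26.7%. Acta1 was the largest part of the sum in every bladder, so the sum does not stand for the list marker by marker. In adult bladders Myh2 averaged 46.1%, Acta1 17.2% and Tnnc2 0.317% of their whole-newborn values. Cav3 stood at 7.54% to 9.71% of its whole-newborn level in adult and at 43.8% to 68.6% in P1 bladders.

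Of 10 cardiac markers, 5 passed the filter and 3 were called lower (Actc1, Myh7 and Myl4), against the same 4.95% of all genes. Summed intensities were 22316 to 51406 in adult bladders, 112377 to 142322 in P1 bladders and 137661 in the whole newborn. In P1 bladders Actc1, Tnnt2 and Myl4 averaged 111%, 715% and 195% of their whole-newborn values. The other cardiac markers averaged below theirs, with Myl2 at 0.308%, so the sum does not stand for the list marker by marker. No marker of either list was listed at 0. Smooth muscle markers, by contrast, gave 0 calls in 13 by limma, with 1 (Synpo2, higher) at an unadjusted p under 0.05, and a median log2 difference of 0.02. The part of striated muscle transcripts in the Cav3 difference was not tested.

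**Figure D2:**
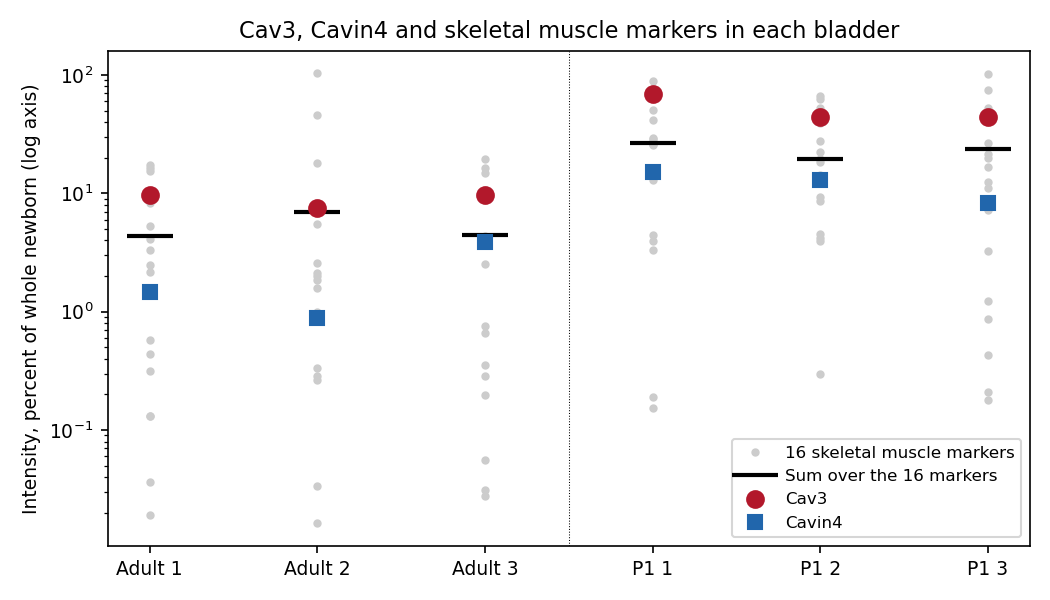
Intensity in each bladder as a percent of the whole-newborn array (log axis) for Cav3 (red circles), Cavin4 (blue squares), 16 skeletal muscle markers (grey dots) and their summed intensity (black bars), with adult arrays left of the dotted line and P1 arrays right of it. Cav3 lies at 7.54% to 9.71% in adult and 43.8% to 68.6% in P1 bladders, above the bar of the summed markers on every array.

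The other proteins of the caveolar coat and neck were read from a list of 13 genes, of which 12 had a probe set (Pacsin2 was not analysed here) and 11 were tested between the stages. Only Ehd1 of the 11 was called, lower in adult bladder, and none was called higher (limma), where 8.97% of 11930 genes were called in either direction, 4.95% lower and 4.02% higher. At an unadjusted p under 0.05 there were 3 lower (Ehd1, Cavin3 and Dnm2) and 1 higher (Ehd4). The list's median log2 difference was -0.29, against -0.01 over all genes tested.

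Ehd1, an EHD ATPase of endosomal recycling that can also sit at the caveolar neck, read 5546, 6449 and 5118 in adult bladders, 10355, 16065 and 13616 in P1 bladders and 10328 in the whole newborn. The stages did not overlap, and Ehd1 fell by 1.20 on the log2 scale (limma SE 0.24, adjusted p = 0.0192). That call was lost when single arrays were left out: the adjusted p was 0.0799 without adult replicate 1, 0.101 without adult replicate 3, 0.0815 without P1 replicate 2 and 0.0555 without P1 replicate 3. It was also lost with median centring (0.0514) and with the mean of the gene's probe sets (0.0958).

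Cavin3, a cavin that binds protein kinase C delta, read 2771, 3521 and 2765 in adult bladders, 7700, 4832 and 5466 in P1 bladders and 1598 in the whole newborn. The stages did not overlap, and the log2 difference of -0.96 did not pass (limma SE 0.27, adjusted p = 0.0634), but without adult replicate 2 it did (-1.07, adjusted p = 0.0499). Cavin2, a cavin that helps shape the pit, read 35339, 29539 and 44051 in adult and 31663, 33741 and 37418 in P1 bladders, with overlapping ranges and a log2 difference of 0.07 (limma adjusted p = 0.878). Ehd2, the EHD ATPase best known at the neck of caveolae, read 1397 to 1720 in adult and 1938 to 2952 in P1 bladders (log2 difference -0.49, limma adjusted p = 0.349).

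Ehd4, another EHD ATPase, read 16897, 8175 and 18798 in adult and 7345, 9866 and 6784 in P1 bladders. Adult replicate 2 lay among the P1 values, and the log2 difference of 0.80 (limma adjusted p = 0.183) was 1.17 without that array (adjusted p = 0.0209). Dnm2, the dynamin that cuts membrane necks, read 13649, 23060 and 10565 in adult and 21813, 29907 and 27676 in P1 bladders. Adult replicate 2 again overlapped P1, and the log2 difference of -0.81 (limma adjusted p = 0.129) was -1.12 without it (adjusted p = 0.0177), but 0.28 with the mean of the gene's probe sets (adjusted p = 0.623). Without adult replicate 2, the list had 1 member called higher and 3 lower.

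Cavin4, the muscle-specific cavin, read 45.6, 27.4 and 119 in adult bladders, 468, 399 and 258 in P1 bladders and 3101 in the whole newborn. Every adult value lay below every P1 value, in the same order of groups as Cav3, but Cavin4 did not pass the filter and was not tested between the stages.

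**Figure D3:**
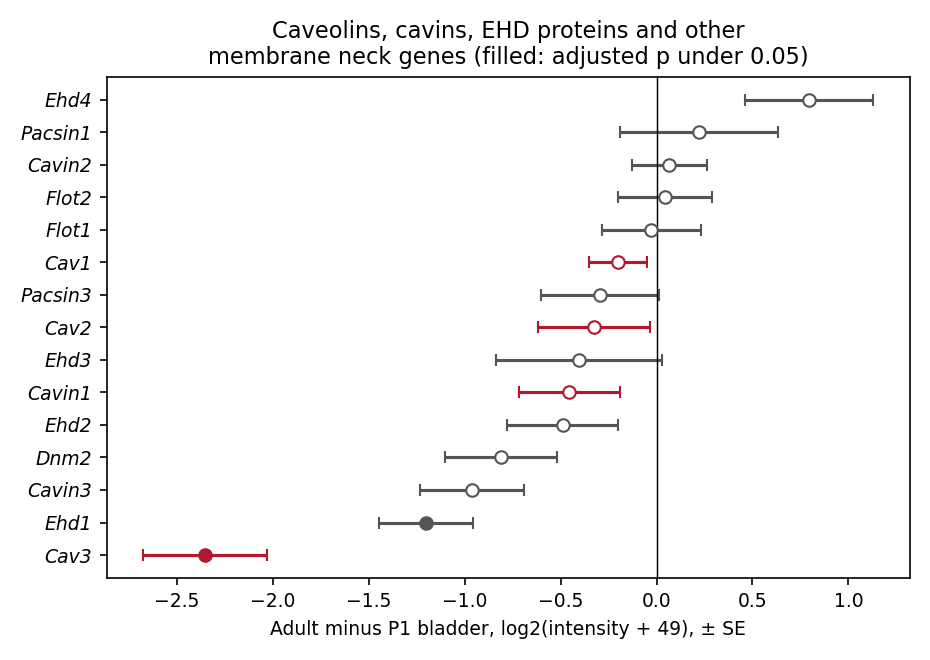
Adult minus P1 difference on the log2(intensity + 49) scale, with its SE, for the 4 members (red) and the 11 tested genes of the coat and neck list (grey), ordered by difference. Filled points, Ehd1 at -1.20 and Cav3 at -2.35, had an adjusted p under 0.05 (limma).

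Receptors, channels and enzymes that bind caveolin or work at caveolae were read from a list of 20 genes, of which 17 were on the array (Chrm2, Ednra and Itpr1 were not analysed here) and 15 were tested between the stages. By limma 0 of the 15 were called, where 8.97% of 11930 genes were called in either direction, and the list's median log2 difference was 0.10. At an unadjusted p under 0.05 there were 2, both higher in adult bladder. These were Insr, the insulin receptor, and Kcnma1, the pore of the large-conductance potassium channel of detrusor muscle. Insr read 7880, 9404 and 8402 in adult and 6429, 4838 and 4019 in P1 bladders without overlap (log2 difference 0.77, limma adjusted p = 0.0997). Kcnma1 averaged 3476 ± 32.2 in adult and 2021 ± 732 in P1 bladders (SD, n = 3 each), a log2 difference of 0.82 (limma adjusted p = 0.135). The largest difference of the list was that of Fyn, a Src family kinase, at 1.56 (limma adjusted p = 0.385). Fyn read 25830, 1233 and 27609 in adult and 3562, 2644 and 3597 in P1 bladders, so adult replicate 2 lay below the P1 values. Of the endothelial markers, whose cells are also rich in caveolae, limma called 0 of 11, against the same 8.97% of all genes. At an unadjusted p under 0.05 there was 1 (Cdh5, lower). Their summed intensity over 12 markers was 12955 to 14602 in adult, 11998 to 19516 in P1 bladders and 17776 in the whole newborn.

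Fat cells, also rich in caveolae, were followed through 8 markers on the array, of which 4 passed the filter. By limma 2 were called higher and 1 lower in adult bladder, where 4.02% of 11930 genes were called higher and 4.95% lower. Adipoq, the hormone adiponectin, read 1167, 466 and 1231 in adult and 51.6, 2.28 and 30.0 in P1 bladders and rose by 3.65 on the log2 scale (limma adjusted p = 0.00461). Every P1 value of Adipoq lay below its array median, so the gene passed the filter only through the adult arrays. Its P1 values were near or below the pseudocount of 49, on which the size of the rise depends. Car3, a carbonic anhydrase of fat and muscle, rose by 1.71 (adjusted p = 0.00245). Fabp4, a fatty acid carrier that endothelium also makes, read 26314, 24908 and 25855 in adult and 40030, 50074 and 39830 in P1 bladders and fell by 0.74 (adjusted p = 0.0345). Fabp4 no longer passed when 1 array was dropped: adult replicate 1 (0.110), adult replicate 3 (0.134), P1 replicate 1 (0.0796), P1 replicate 2 (0.135) or P1 replicate 3 (0.0635). Summed over the 8 markers, the intensity was 79892 to 96422 in adult, 58618 to 74720 in P1 bladders and 155913 in the whole newborn. Cav1, Cav2 and Cavin1 did not pass between these stages, and the part of fat cells in their values was not tested.

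Against the whole newborn, Cav2 was the member called higher in bladder at both ages. These comparisons share the single newborn array, which was assumed to vary like the bladders, and the array medians of the bladders lay lower by 0.67 (adult) and 0.68 (P1) log2 units, so values with every array centred on its median are given too. Cav2 was 2.94-fold higher in adult bladder (log2 difference 1.56, limma SE 0.42, 95% interval 0.62 to 2.49, adjusted p = 0.0429) and 3.68-fold higher in P1 bladder (log2 difference 1.88, limma SE 0.42, 95% interval 0.94 to 2.82, adjusted p = 0.0283). With median centring the differences were 2.22 and 2.56. The dimmer Cav2 probe set differed by -0.16 in adult (adjusted p = 0.875) and by 0.19 in P1 bladder (adjusted p = 0.866).

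Cav2's calls rested on single arrays. The adult difference did not pass without adult replicate 1 (adjusted p = 0.111), adult replicate 3 (0.110), P1 replicate 1 (0.0662) or P1 replicate 2 (0.0518). The P1 difference did not pass without adult replicate 3 (0.0568), P1 replicate 1 (0.0668) or P1 replicate 2 (0.0695). Of the 4 members, 1 was called higher and 1 lower in adult bladder. There 6.1% of 13504 genes, 1 probe set each, were called higher, 9.23% lower and 15.3% in all. In P1 bladder 1 of 4 was called higher and none lower. There 3.19% of 13745 genes were called higher, 6.39% lower and 9.58% in all. By probe sets, the adult shares were 4.4% of 28062 higher, 7.2% lower and 11.6% in all. The P1 shares were 2.3% of 28316 higher, 5.12% lower and 7.42% in all. Scaling moved these splits: adult bladder had 1235 probe sets higher and 2020 lower as deposited, 2680 and 1216 with median centring and 1968 and 1839 with quantile normalization. P1 bladder had 650 higher and 1451 lower as deposited, 1651 and 859 with median centring and 1186 and 1266 with quantile normalization.

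Cav3 was 9.88-fold lower in adult bladder than in the whole newborn (log2 difference -3.30, limma SE 0.46, 95% interval -4.34 to -2.27, adjusted p = 0.00246). In P1 bladder its log2 difference of -0.95 had a 95% interval of -1.97 to 0.07 and did not pass (limma adjusted p = 0.252). Cav1 differed by 0.47 in adult (95% interval -0.05 to 0.98, adjusted p = 0.231) and by 0.67 in P1 bladder (95% interval 0.16 to 1.17, adjusted p = 0.113). With median centring these were 1.14 (adjusted p = 0.0148) and 1.35 (adjusted p = 0.00948), both past the threshold, and without adult replicate 2 the P1 difference passed as well (0.67, adjusted p = 0.0308). Cavin1 differed by 0.27 in adult (limma adjusted p = 0.694) and by 0.73 in P1 bladder (adjusted p = 0.285), and by 0.94 and 1.41 with median centring, without passing.

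**Figure D4:**
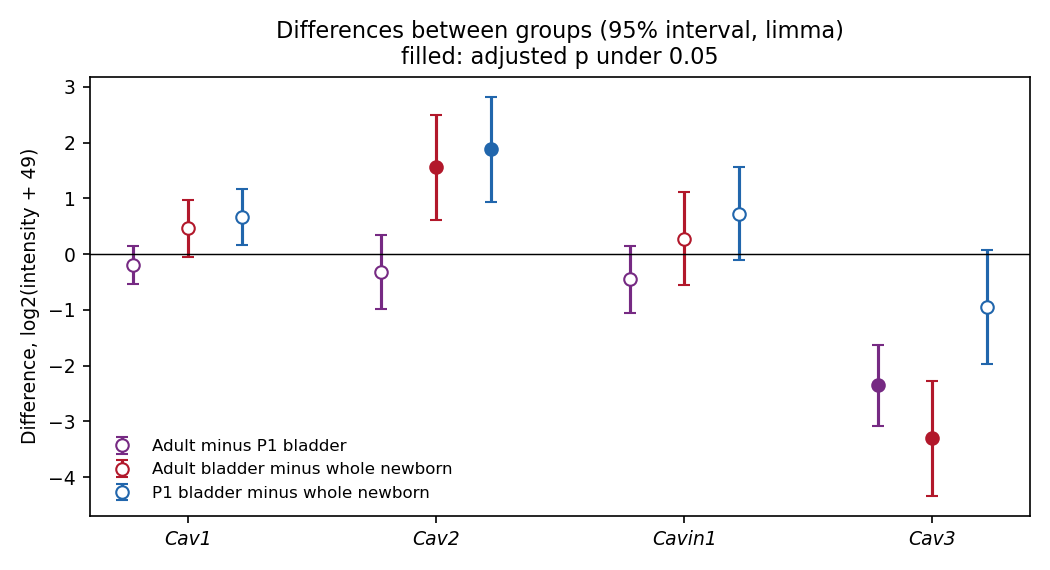
Log2(intensity + 49) differences with 95% intervals from limma for each member: adult minus P1 bladder (purple), adult bladder minus whole newborn (red) and P1 bladder minus whole newborn (blue). Filled points had an adjusted p under 0.05: Cav2 in both bladder groups against the whole newborn (1.56 and 1.88) and Cav3 in adult bladder against P1 (-2.35) and against the whole newborn (-3.30).

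Markers of smooth muscle and of urothelium, the lining of the bladder, stood high beside Cav2 in these comparisons. Of smooth muscle markers 11 of 13 were called higher in adult and 11 of 13 in P1 bladder than in the whole newborn, with median log2 differences of 3.39 and 3.13. The 2 not called at either age were Acta2 and Des. Of urothelial markers 7 of 13 were called higher at each age and none lower, with medians of 1.96 (adult) and 2.05 (P1). Their summed intensity was 183345 to 252903 in adult bladders, 213563 to 293230 in P1 bladders and 44200 in the whole newborn. Endothelial markers gave 0 calls in 11 by limma for either age, with 1 (adult, lower) and 0 (P1) at an unadjusted p under 0.05. Of fat cell markers 1 (Pparg) was called higher and 3 lower of 8 tested in adult bladder, and 1 (Pparg) higher and 4 lower of 7 tested in P1 bladder. The part of cell makeup in the Cav2 difference was not tested. In the coat and neck list 12 genes were tested against the whole newborn, and 1 was called higher and 1 lower at each age. Over all genes 6.1% were called higher, 9.23% lower and 15.3% in all for adult bladder, and 3.19% higher, 6.39% lower and 9.58% in all for P1 bladder. Of the genes called lower, Cavin4 and the fat marker Cidec in adult bladder lay below the median of each array of that group. So did the fat markers Adipoq, Cidec and Retn in P1 bladder. They entered those comparisons only through the newborn array, where they were high, so these calls are no separate support. In the coat and neck list Cavin4 was the gene called lower. Its log2 differences were -4.88 in adult (limma adjusted p = 0.00183) and -2.93 in P1 bladder (adjusted p = 0.0250, 0.0534 without P1 replicate 2, 0.0700 with median centring and 0.0772 with a pseudocount of 9). The gene called higher was Ehd4 in adult bladder (1.90, limma adjusted p = 0.0327) and Cavin3 in P1 bladder (1.85, adjusted p = 0.0217). The Ehd4 call was lost without adult replicate 1 (adjusted p = 0.0882), adult replicate 3 (0.0900) or P1 replicate 1 (0.0537), and with eBayes without a trend (0.0709).

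Ordered by level, Cav1, Cav2 and Cavin1 ran from the whole newborn, the lowest, through adult to P1 bladder, with adult and P1 bladder not separable beyond their spread, and for Cavin1 the newborn value also within the adult range. Cav3 ran in another order, with adult bladder lowest, then P1 bladder, then the whole newborn, and adult stood apart from both.

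Likeness of profile was measured as the root mean square difference of log2 values over the 7 arrays, each gene centred on its own mean, among 11489 other genes. The nearest genes were Cops8 (0.0608), Tmem141 (0.0828) and Nop53 (0.0856) for Cav1, Adam9 (0.109), Cd9 (0.145) and Stum (0.146) for Cav2, and Wee1 (0.0937), Dip2a (0.105) and Fnbp1l (0.108) for Cavin1. For Cav3 they were Clic6 (0.125), Heph (0.260) and Cldn3 (0.298). Clic6, a chloride intracellular channel protein, read 168, 165.5 and 228 in adult bladders, 1639, 936 and 1097 in P1 bladders and 2407 in the whole newborn. It had the same order of groups as Cav3, which follows from its choice by profile over these arrays. With the 6 bladder arrays alone Clic6 was again nearest to Cav3, whereas none of the 3 nearest genes of Cav1, Cav2 or Cavin1 stayed among the nearest 3. The 6 arrays are part of the 7, so this repeat is no independent check. Over those 6 arrays Cav2 and Cavin1 differed by 0.141, which made Cavin1 the 39th nearest gene to Cav2. Over all 7 arrays they differed by 0.445, and Cavin1 was the 686th nearest gene to Cav2.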

How the data were processed

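Values were the intensities the authors deposited in 1 table of all 7 arrays, on a linear scale. GCOS is named in the submitters' processing notes; the version, how probes were summarised and the target of scaling are not given in the sources used. With the top and bottom 2% of values removed, each array had a mean of 1500.01. Of 45101 probe sets, 64 controls were left out. Values were analysed as log2(intensity + 49), 49 being the 20th percentile, without centring. Tested probe sets lay above their array's median on at least 3 of 6 bladder arrays (stage) or 1 of 4 arrays (newborn comparisons). Differences were tested with limma 3.58.1 (R 4.3.3, lmFit and trended eBayes) and Benjamini-Hochberg adjustment over all probe sets tested, list genes included. The stage fit held the 6 bladder arrays, the newborn fit all 7.

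Named genes were the members, the 3 nearest profiles of each, called members of the coat and signalling lists, up to 4 of each marker list, and exceptions. Other list genes (Cavin2, Cavin3, Cavin4, Ehd2, Ehd4, Dnm2, Insr, Kcnma1) and Acta1, Ckm, Casq1, Tnnc2, Tnni2, Myh1, Myh2, Myh4, Adipoq, Car3 and Fabp4 were picked after their values were seen. So were Tnnt1, Tnnt3, Myh3, Myh8, Tnnt2, Myl2, Cidec, Retn and Fyn. The members and lists were chosen with earlier results of these data known. Scripts were tested on simulated data. Alternatives were pseudocounts of 9 and 165, quantile normalization, median centring, filters, eBayes settings, array weights, the spike-in level as a covariate, the mean of a gene's probe sets, all arrays in 1 fit, and leaving out arrays.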

Additional observations from a re-analysis of the deposited data

How the results depend on the processing

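Between adult and P1 bladder, Cav3 passed under 19 of 19 alternatives (log2 difference -2.49 to -2.05, limma adjusted p 0.000652 to 0.0205), and Cav1, Cav2 and Cavin1 passed under 0 of 19. The number of arrays, 3 a stage and 1 of whole newborns, limits the precision. Cav3 passed in adult bladder against the whole newborn under 18 of 18 alternatives (-3.45 to -2.64) and in P1 bladder under 0 of 18.

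Cav1 against the whole newborn passed in adult bladder with median centring (1.14) and the spike-in covariate (0.54), and in P1 bladder with array weights (0.67), median centring (1.35), quantile normalization (0.81), the spike-in covariate (0.74) and leaving out adult replicate 2 and P1 replicate 3 together, in each stage the array with most spike-in signal (0.67); leaving out single arrays gave 0.61 to 0.72. Cav2 in adult bladder no longer passed with the mean of its probe sets (0.70), no filter (1.56), no trend (1.56) or a pseudocount of 9 (1.57), and leaving out single arrays gave 1.38 to 1.76. Cav2 in P1 bladder no longer passed with the mean of its probe sets (1.03) or no trend (1.88), and leaving out single arrays gave 1.70 to 2.13. Cavin1 in P1 bladder passed only without that pair of arrays (0.92). The cause of these changes was not tested.

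Called probe sets between the stages, 1829, were 4660 with array weights, 3291 with the spike-in covariate, 1082 at gene level with probe sets averaged, and 606 to 2321 without single arrays. For adult bladder against the whole newborn, 3255 became 8364 with array weights and 6130 without that pair, and 1799 to 4693 without single arrays. For P1 bladder, 2101 became 4172 with array weights, 4087 without the pair and 1326 with a pseudocount of 9. Between the stages the coat and neck list had 0 to 1 genes higher and 0 to 3 lower over the alternatives, the signalling list 0 to 2 higher, smooth muscle 0 to 1 higher and 0 to 2 lower, endothelium 0 to 1 lower, cardiac muscle 3 to 5 lower, fat cells 1 to 3 higher and 0 to 1 lower, urothelium 0 to 2 lower and skeletal muscle 7 to 11 lower. Of genes not called between the stages, Cavin3 passed under 5 of 19 alternatives, Ehd4 under 4, Dnm2 under 4, Insr under 1 and Tnni2 under 1 of 17; of those called, Ehd1 was lost under 6 and Fabp4 under 9. Signs turned, without passing, with the mean of probe sets for Dnm2 between the stages (0.28), for Ehd2 (-0.38), Insr (-0.33) and Kcnma1 (-0.16) in adult bladder and Ehd1 (-0.24), Ehd2 (-0.16) and Kcnma1 (-0.30) in P1 bladder against the whole newborn; with median centring for Dnm2 (0.38) and Insr (0.64) in P1 bladder; for Insr when single arrays were left out (-0.23 to 0.11) and without the same pair (0.11); and for Cavin2 between the stages when single arrays were left out (-0.082 to 0.21). Near 0 between the stages, Myh1 ran from -0.998 to 0.90 and Myh2 from -1.03 to 0.33 when single arrays were left out, and Myh1 was -0.44 with array weights, -0.012 with median centring, -0.088 with the larger pseudocount and -0.51 without the pair. Fabp4 in P1 bladder against the whole newborn was 0.45 with median centring.

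No paired analysis was possible because the labels give the bladder samples no shared replicate numbers: replicates were numbered in accession order, which pairs nothing.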
